A study of Mus musculus with 3 samples.

Results

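The 33 genes described here encode scaffolds, adhesion proteins, kinase subunits and neurotransmitter receptors, most of them known from the postsynaptic side of synapses. They were chosen by name: a row of the deposited gene table belonged to a gene when its list of aliases held the symbol, and no gene had more than 1 such row. Of the 33 genes, 32 had a row among the 27389 gene clusters of the table, and 26 of these reached 1 CPM (CPM being reads per 1000000 reads of the library, after scaling between libraries) in at least 1 library. The other 6, Nlgn1, Grin2a, Grin2b, Gabra3, Gabbr2 and Grm5, were too low to measure, and no row listed Shank1 as an alias.

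The cells were CAD cells, a mouse neuroblastoma line of catecholaminergic character. They had received siRNAs against Ptbp1 and Ptbp2 together, siRNAs against Ptbp1 alone, or control siRNAs, all ON-TARGETplus reagents delivered by lipofection, and poly(A)+ RNA was sequenced 72 h later. Each of these 3 groups had 1 library of 1 cell line, so no difference has a replicate check and no p-value is given. The series asked how neuronal transcript levels are set through regulated intron retention. Ptbp1 encodes a splicing repressor of most non-neuronal cells, and Ptbp2 its relative in neurons.

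In an excitatory synapse, glutamate released from the axon opens AMPA, NMDA and kainate receptors. MAGUK proteins (Dlg genes) hold receptors under the membrane, and GKAP proteins (Dlgap genes) tie them to Shank and Homer, which reach the actin cytoskeleton and the metabotropic receptors. In inhibitory synapses gephyrin takes the scaffold's place, and in autonomic neurons fast transmission runs through nicotinic receptors of the alpha3 and beta4 subunits. PTB proteins bind pyrimidine-rich RNA, often before the 3' splice site, and Dlg4, the gene of the scaffold PSD-95, is a known target in brain whose exon they repress.

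The libraries held 13908656 reads after both siRNAs, 16526948 after Ptbp1 siRNA and 15631459 after control siRNA, so 1 CPM stood for 14.1, 16.8 and 15.1 reads in that order. Ptbp1 had 1516 reads after both siRNAs, 1486 after Ptbp1 siRNA and 7191 after control siRNA, and Ptbp2 had 633, 3044 and 784. By the size rule given below, Ptbp1 was called lower than after control siRNA in both knockdowns. Ptbp2 was called higher after Ptbp1 siRNA than after control siRNA, and lower after both siRNAs than after Ptbp1 siRNA. Between both siRNAs and control siRNA Ptbp2 was not called, so that pair differs mainly in Ptbp1 of these 2 target RNAs. All 10 neuronal and catecholaminergic markers with a row, among them Th, Dbh and Tubb3, reached 1 CPM, with summed levels of 3779, 3356 and 3486 CPM. Of 7 astrocyte markers 1 reached it (Slc1a2), Slc1a3 and Gja1 were at 0 reads, and the list summed to 1.41, 1.72 and 2.65 CPM. Of 7 oligodendrocyte and Schwann markers 2 did, with sums of 32.0, 38.2 and 36.9 CPM. Of 8 fibroblast and matrix markers 4 reached 1 CPM, with sums of 115, 181 and 304 CPM, mostly Sparc (107, 169 and 289 CPM). Sparc and Col1a1 were called lower after both siRNAs than after control siRNA. Pdgfra at 1.56, 1.25 and 1.32 CPM and Pdgfrb at 2.48, 5.35 and 5.03 CPM were not called and did not keep that order. Col1a2 was at 0. Blood and endothelial markers, 2 of 5 at 1 CPM, summed to 12.1, 17.3 and 23.0 CPM, and Hba-a1 was at 0. The part of these programmes in the results below was not tested. In bulk RNA of 1 cell line, fewer cells that express a gene and less RNA per cell cannot be told apart.

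The ends of introns of 4 genes with large or graded differences are shown as sequence context, because PTB proteins are known to bind such stretches in other genes; whether they bind these was not tested. The last 60 bases of the last intron are printed 5' to 3' on the gene's strand of the mm9 build, from the genome and the GENCODE annotation of that build. Capitals mark the PTB motif TCTT, searched on the RNA strand only together with CTCTCT.
Hrh3 (chr2:179836122-179836181, minus strand): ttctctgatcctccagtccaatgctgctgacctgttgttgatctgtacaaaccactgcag
Chrna3 (chr9:54860737-54860796, minus strand): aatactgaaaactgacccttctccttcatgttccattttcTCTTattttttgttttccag
Dlg2 (chr7:99592961-99593020, plus strand): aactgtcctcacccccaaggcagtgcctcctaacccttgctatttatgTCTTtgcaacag
Camk2b (chr11:5871830-5871889, minus strand): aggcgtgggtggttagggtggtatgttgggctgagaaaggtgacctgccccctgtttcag
The Chrna3 stretch was 71.7% pyrimidine, those of Dlg2 and Hrh3 63.3% and 61.7%, and that of Camk2b 43.3%. Neither motif was found in the Hrh3 and Camk2b stretches, and CTCTCT in none of the 4. Within 100 bases before the 3' splice site, TCTT was found in 320 of 478 introns of the 26 measured genes (66.9%), against 64.7% of 125470 introns of all genes at 1 CPM. CTCTCT was found in 67 (14.0%), against 10.7%. The 4 printed stretches do not stand for all introns of their genes. In the 100-base window TCTT was found in 3 of 6 introns of Hrh3, 3 of 5 of Chrna3, 32 of 42 of Dlg2 and 19 of 32 of Camk2b. CTCTCT was found in 0, 1, 5 and 6 of them in that order. The values in the table are totals per gene and do not show whether any of these introns was retained.

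Hrh3 was the 1 gene of the 33 that was called, in both knockdowns against control siRNA. It encodes the histamine H3 receptor, a G protein-coupled receptor of neurons that lowers transmitter release, a presynaptic role (chromosome 2, 179834178 to 179838927). Its level was 5.73 CPM after both siRNAs (81 reads), 6.48 CPM after Ptbp1 siRNA (109 reads) and 1.52 CPM after control siRNA (23 reads). Both knockdown libraries were high and close together, and the control library was low. It rose 4.26-fold after Ptbp1 siRNA over control siRNA (95% interval 2.70 to 7.0) and 3.76-fold after both siRNAs over control siRNA (2.34 to 6.27). Between both siRNAs and Ptbp1 siRNA the ratio was 0.883 (0.654 to 1.19). The call did not hold with a pseudocount of 5 CPM (0.72 after both siRNAs and 0.82 after Ptbp1 siRNA, on the log2 scale) or with the deposited RPKM (0.87 and 0.98). These intervals are exact conditional binomial (Clopper-Pearson) intervals of the read ratio. They cover counting error only and are approximate, since the libraries were amplified by PCR and carried no molecular identifiers. The deposited read values are also net numbers handled as counts, so all counting intervals given here are approximate for that reason too. About 11.1% of the exon bases of Hrh3 lie under exons of another annotated gene, Gm17180, whose reads an unstranded library cannot set apart.

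A call required a difference of at least 1 on the log2(CPM + 1) scale, which is 2-fold and understates low genes, 1 CPM in the higher library and an interval that excluded a ratio of 1. Of 25 members tested for Ptbp1 siRNA against control siRNA, 1 was called higher and 0 lower, where 0.279% of all 13285 genes tested were called higher and 0.459% lower. For both siRNAs against control siRNA it was 1 higher and 0 lower of 26, against 1.07% and 2.75% of 13306 genes. For both siRNAs against Ptbp1 siRNA no member of 26 was called, against 0.105% higher and 0.345% lower of 13338. With so few calls in so short a list these shares say little about the members as a group. Scaled by library totals alone, the split over all genes became 52 higher and 48 lower in place of 37 and 61 after Ptbp1 siRNA, and 196 and 287 in place of 143 and 366 after both siRNAs, with Chrna3 as a second member called.

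The members' median difference was 0.12 after Ptbp1 siRNA over control siRNA, beside -0.01 over all genes tested, with 17 of 25 members above 0. It was 0.05 after both siRNAs over control siRNA, beside -0.01, with 17 of 26 above 0, and 0.02 for both siRNAs over Ptbp1 siRNA, beside -0.00, with 14 of 26 above 0. Both knockdowns are set against the same control library, so these values are not independent of each other. Within 1.5-fold on the log2(CPM + 1) scale lay 22, 21 and 24 members in these 3 pairs (88%, 80.8% and 92.3%). Of all genes tested it was 93.5%, 82.7% and 94.6%. Plain CPM ratios of low genes can lie further out, such as 1.64 for Chrnb4 for both siRNAs over Ptbp1 siRNA. Intervals excluded a ratio of 1 for 13 members in the first pair, 10 above and 3 below, for 14 in the second, 9 above and 5 below, and for 9 in the third, 5 above and 4 below. Of all genes tested, 21.0% lay above and 26.4% below in the first pair, 28.9% and 32.3% in the second, and 22.2% and 22.5% in the third, so an interval on one side of 1 is common in these libraries.

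**Figure D1:**
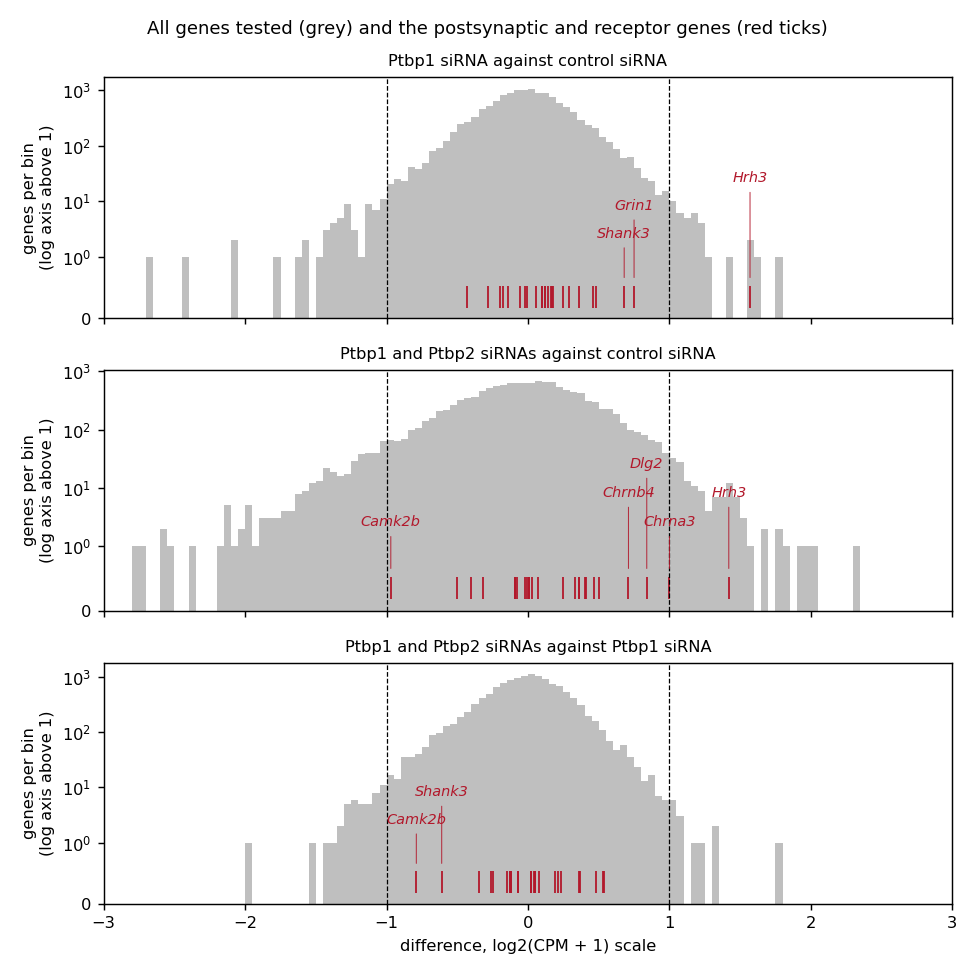
Difference on the log2(CPM + 1) scale (horizontal) for all genes tested, as the number of genes per bin of 0.05 (vertical, log axis above 1), in the 3 pairs of libraries. Red ticks are the measured postsynaptic and receptor genes, named where they lie at least 0.6 from 0, and dashed lines mark the limit for a call, which Hrh3 passes in the upper 2 panels and Chrna3 just misses at 0.997 in the middle one.

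Chrna3 and Chrnb4 encode the alpha3 and beta4 subunits of the ganglionic nicotinic acetylcholine receptor and are neighbours on the minus strand of chromosome 9 (Chrna3 at 54859150 to 54874366, Chrnb4 at 54875963 to 54896351). Chrna3 had 2268 reads after both siRNAs, 1858 after Ptbp1 siRNA and 1207 after control siRNA, or 160, 111 and 79.9 CPM. The 3 libraries stood in clear order, with the highest level after both siRNAs. Its ratio was 2.01 for both siRNAs over control siRNA (1.87 to 2.16), 1.38 for Ptbp1 siRNA over control siRNA (1.29 to 1.49) and 1.45 for both siRNAs over Ptbp1 siRNA (1.36 to 1.54). On the log2(CPM + 1) scale the first of these is 0.997, just short of a call.

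Chrnb4 had 58, 42 and 32 reads in the same order, or 4.10, 2.50 and 2.12 CPM. It was 1.94-fold higher after both siRNAs than after control siRNA (1.24 to 3.08) and 1.64-fold higher than after Ptbp1 siRNA (1.08 to 2.50), while for Ptbp1 siRNA over control siRNA the interval held 1 (1.18, 0.727 to 1.93). Per exonic length, Chrna3 made up 97.2%, 97.5% and 97.1% of the summed RPKM (reads scaled by exonic length and library size, as deposited) of this pair of genes. Their neighbour Chrna5, which encodes an accessory subunit of the same receptor, had 41, 40 and 24 reads and a ratio of 1.83 for both siRNAs over control siRNA (1.08 to 3.16). Chrnb2, another beta subunit gene and not a member, had 1123, 1211 and 820 reads, or 9.75, 8.85 and 6.36 RPKM, far above Chrnb4. Its ratio was 1.46 for both siRNAs over control siRNA (1.34 to 1.6). The shares of the pair are therefore not shares of all nicotinic subunit genes. Of the neuronal and catecholaminergic markers Dbh and Phox2a, chosen here after their values were seen, were called higher in the same pair, at 1.21 and 1.04 on the log2(CPM + 1) scale, and 26.1% of the exon bases of Phox2a are shared with Inppl1. The whole marker list had a median of 0.11 with 6 of 10 above 0, and others lay lower, such as Stmn2 at -0.48 and Th at -0.23. Their part in the nicotinic values was not tested.

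The promoters of the nicotinic pair and of Hrh3 are shown because the pair are neighbours, both higher after both siRNAs than after control siRNA by their intervals though not called, and because Hrh3 was called. They are the 250 bases before the start site, 5' to 3' on the gene's strand, from RefSeq on the GRCm38.p6 build, a later build than that of the table. Capitals mark the GC box, GGGCGG on either strand (CCGCCC on the other), the motif of Sp-family factors, and matches may overlap.
Chrna3 (chr9:55026563-55026812, minus strand): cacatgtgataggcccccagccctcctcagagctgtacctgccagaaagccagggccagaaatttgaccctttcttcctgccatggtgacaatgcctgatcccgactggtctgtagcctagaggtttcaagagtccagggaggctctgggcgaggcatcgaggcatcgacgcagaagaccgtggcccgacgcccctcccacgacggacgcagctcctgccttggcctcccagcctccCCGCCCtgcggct
Chrnb4 (chr9:55048545-55048794, minus strand): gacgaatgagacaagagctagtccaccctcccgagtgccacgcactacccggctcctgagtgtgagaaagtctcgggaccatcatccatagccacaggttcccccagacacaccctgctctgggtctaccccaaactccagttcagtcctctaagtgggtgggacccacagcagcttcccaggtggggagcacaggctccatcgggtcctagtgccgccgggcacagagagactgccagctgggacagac
Hrh3 (chr2:180104408-180104657, minus strand): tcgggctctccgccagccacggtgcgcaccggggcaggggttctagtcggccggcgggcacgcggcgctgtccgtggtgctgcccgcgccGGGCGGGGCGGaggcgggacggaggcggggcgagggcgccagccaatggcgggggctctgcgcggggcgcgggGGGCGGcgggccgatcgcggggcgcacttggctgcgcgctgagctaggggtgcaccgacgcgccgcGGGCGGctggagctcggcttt
The Hrh3 window held 4 matches, that of Chrna3 1 and that of Chrnb4 0. RefSeq promoters were found for 21 of the 26 measured genes, 30 in all, of which 13 held a GC box (43.3%), against 58.2% of 10201 promoters of genes at 1 CPM and 32.7% of all 32851 promoters.

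**Figure D2:**
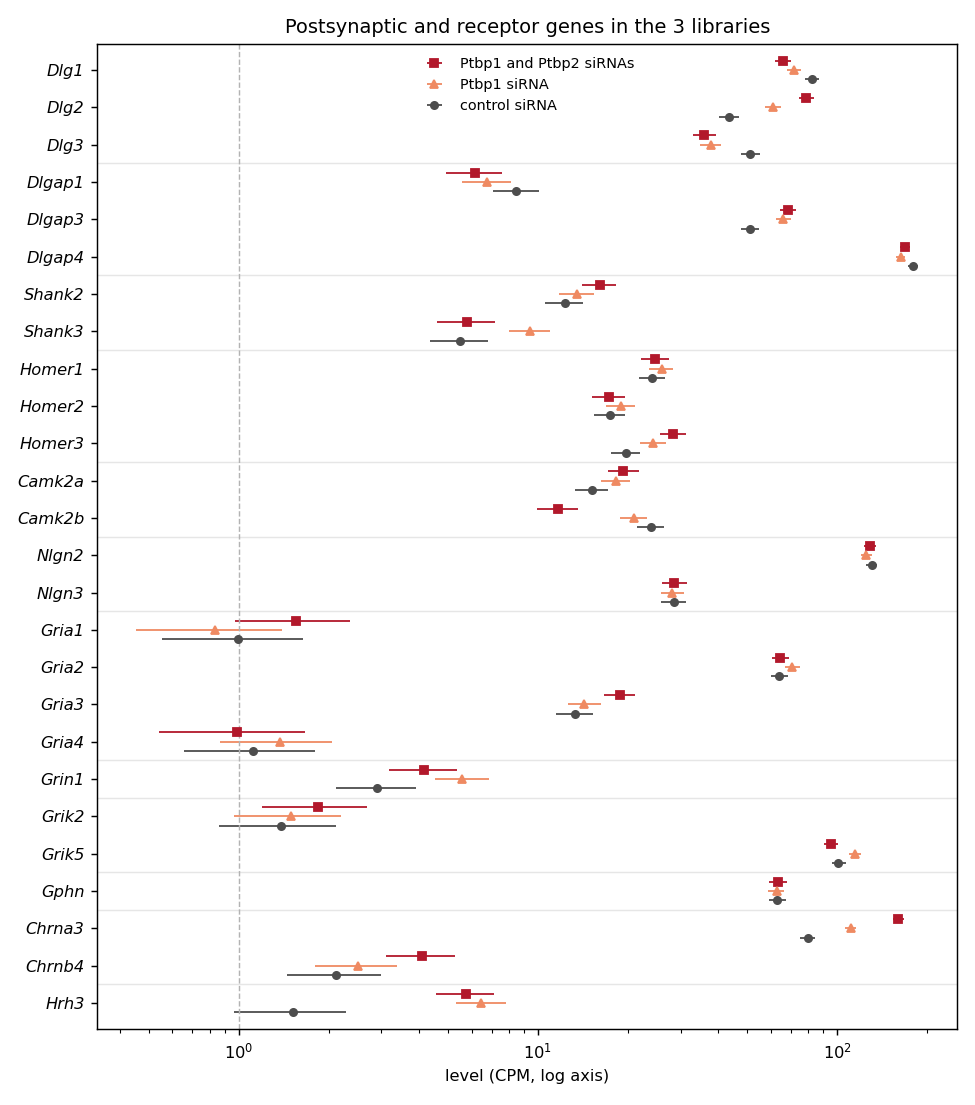
Level in CPM (log axis) of the 26 measured genes in the library with both siRNAs (squares), with Ptbp1 siRNA (triangles) and with control siRNA (circles), with exact Poisson 95% intervals of the reads as bars and the 1 CPM minimum dashed. Chrna3 stands at 160, 111 and 79.9 CPM in the 3 libraries, Camk2b is set apart only by its low square at 11.7 CPM, and Nlgn2, Nlgn3 and Gphn overlap in all 3.

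The MAGUK genes did not move as one. Dlg2, which encodes PSD-93 (chromosome 7, 98239296 to 99597599, a span of 1358 kb), had 1117 reads after both siRNAs, 1029 after Ptbp1 siRNA and 660 after control siRNA, or 79.0, 61.2 and 43.7 CPM. Like Chrna3 it stood in order over the libraries. It was 1.81-fold higher after both siRNAs than after control siRNA (1.64 to 1.99), 1.40-fold higher after Ptbp1 siRNA than after control siRNA (1.27 to 1.55), and 1.29-fold higher after both siRNAs than after Ptbp1 siRNA (1.18 to 1.41). Dlg1, the gene of SAP97, had 934, 1208 and 1246 reads and a ratio of 0.801 for both siRNAs over control siRNA (0.735 to 0.873). Dlg3, the gene of SAP102 on the X chromosome, had 509, 636 and 776 reads and a ratio of 0.701 (0.626 to 0.785). Dlg1 and Dlg3 were also below control siRNA after Ptbp1 siRNA, at 0.872 (0.805 to 0.944) and 0.737 (0.662 to 0.819). For both siRNAs over Ptbp1 siRNA their intervals held 1, at 0.919 (0.843 to 1) and 0.951 (0.845 to 1.07).

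The share of Dlg2 in the RPKM of these 3 genes was therefore 30.6% after both siRNAs, 24.1% after Ptbp1 siRNA and 15.7% after control siRNA. Their sum hardly differed, at 17.5, 17.2 and 18.0 RPKM. Dlg4, not a member, had 2533, 3099 and 3100 reads and a ratio of 0.873 for both siRNAs over control siRNA (0.828 to 0.921). At 51.0, 52.4 and 55.7 RPKM it was more abundant per length than these 3 genes together. The shares above are therefore not shares of the whole MAGUK family.

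The GKAP genes also differed among themselves. Dlgap3 (chromosome 4, 126845921 to 126914265) had 969 reads after both siRNAs, 1113 after Ptbp1 siRNA and 774 after control siRNA. It was 1.34-fold (1.22 to 1.47) and 1.29-fold higher (1.18 to 1.42) after both siRNAs and after Ptbp1 siRNA than after control siRNA. Dlgap4, the most abundant of the Dlg, Dlgap, Shank and Homer genes listed at 13.1, 12.7 and 13.4 RPKM, had ratios of 0.936 (0.886 to 0.989) and 0.906 (0.859 to 0.956), which held 1 when libraries were scaled by their totals. Dlgap1, a gene of long span with 87, 114 and 128 reads, had a ratio of 0.726 for both siRNAs over control siRNA (0.547 to 0.961), which also held 1 under that scaling, and 0.801 for Ptbp1 siRNA over control siRNA (0.617 to 1.04). Dlgap3 held 40.6%, 40.5% and 32.2% of the RPKM of the 3 genes, alike in both knockdown libraries.

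Shank and Homer proteins form the deeper layer of the scaffold. Shank3 (chromosome 15, 89330288 to 89388754) had 82 reads after both siRNAs, 158 after Ptbp1 siRNA and 83 after control siRNA. The Ptbp1 siRNA library alone was high: its ratio over control siRNA was 1.71 (1.30 to 2.26), both siRNAs over control siRNA gave 1.06 (0.769 to 1.45), and both siRNAs over Ptbp1 siRNA gave 0.617 (0.467 to 0.811). Shank2 had 227, 227 and 186 reads and a ratio of 1.30 for both siRNAs over control siRNA (1.07 to 1.59).

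Homer3 (chromosome 8, 72806949 to 72818251) had 400, 409 and 297 reads. Its ratio was 1.44 for both siRNAs over control siRNA (1.24 to 1.68), 1.24 for Ptbp1 siRNA over control siRNA (1.06 to 1.44) and 1.16 for both siRNAs over Ptbp1 siRNA (1.01 to 1.34). About 25.4% of its exon bases lie under exons of Ddx49, a helicase gene whose own cluster had differences of 0.13 and 0.04 in these pairs on the log2(CPM + 1) scale. Homer1 with 349, 435 and 364 reads and Homer2 with 244, 319 and 263 had intervals that held 1 in all 3 pairs. The gene total of Homer1 does not separate its short activity-induced form from the long forms.

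Camk2a and Camk2b encode the alpha and beta subunits of calcium/calmodulin-dependent kinase II, the main kinase of the postsynaptic density. Camk2b (chromosome 11, 5869675 to 5965751) had 165 reads after both siRNAs, 351 after Ptbp1 siRNA and 360 after control siRNA, or 11.7, 20.9 and 23.8 CPM. The library with both siRNAs was low and the other two were close. The level was 2.04-fold lower after both siRNAs than after control siRNA (1.69 to 2.47) and 1.79-fold lower than after Ptbp1 siRNA (1.48 to 2.17), while Ptbp1 siRNA over control siRNA gave 0.876 (0.754 to 1.02). At -0.97 on the log2(CPM + 1) scale it was the lowest member against control siRNA and just short of a call. The aliases of its row also name Camk2d, but its position is that of Camk2b, and Camk2d has a row of its own on chromosome 3.

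Camk2a had 273, 306 and 229 reads and was 1.27-fold higher after both siRNAs than after control siRNA (1.06 to 1.53). Of the RPKM of the alpha and beta genes, Camk2a therefore held 65.5% after both siRNAs, 50.0% after Ptbp1 siRNA and 42.2% after control siRNA. Camk2d, the delta subunit gene and not a member, had 1567, 2227 and 2139 reads and was more abundant per length than either. Camk2g, the gamma subunit gene and not a member, was higher still, at 15.9, 17 and 14 RPKM. Its ratio was 1.08 for both siRNAs over control siRNA (0.997 to 1.17). The shares of Camk2a are therefore not shares of the whole kinase family.

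**Figure D3:**
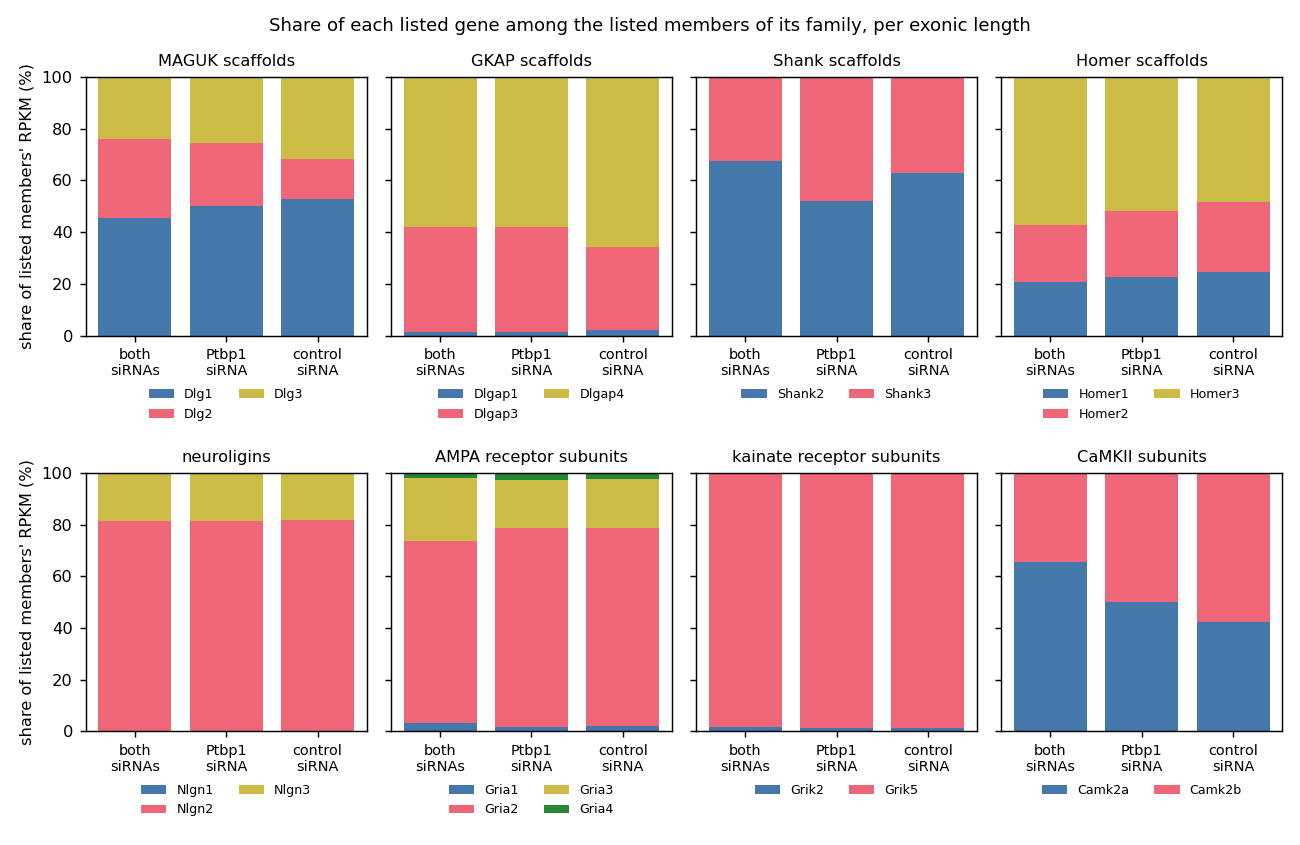
Share of the summed deposited RPKM (percent, vertical) that each listed gene holds among the listed members of 8 families, in the library with both siRNAs, with Ptbp1 siRNA and with control siRNA from left to right. Dlg2 holds 30.6% and Camk2a 65.5% with both siRNAs, against 15.7% and 42.2% with control siRNA, while the neuroligins keep the same division, with Nlgn2 at 81.4% to 81.8%.

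Of the ionotropic glutamate receptor genes, Gria2 and Grik5 were abundant, while of the 3 listed NMDA subunit genes only Grin1 reached 1 CPM. Gria2, whose subunit makes AMPA receptors nearly impermeable to calcium, held most of the AMPA RPKM, 70.5% after both siRNAs, 77.1% after Ptbp1 siRNA and 76.5% after control siRNA. It had 914, 1192 and 970 reads, with a ratio of 1.01 for both siRNAs over control siRNA (0.919 to 1.10) and 1.10 for Ptbp1 siRNA over control siRNA (1.01 to 1.20). Gria3 had 266, 241 and 201 reads and was 1.41-fold higher after both siRNAs than after control siRNA (1.17 to 1.71) and 1.31-fold higher than after Ptbp1 siRNA (1.10 to 1.57). Gria1 with 22, 14 and 15 reads and Gria4 with 14, 23 and 17 lay at the limit of measurement. Their intervals, such as 0.777 to 3.25 for Gria1 after both siRNAs over control siRNA, allow differences past 2-fold that these depths could not show.

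Grik5, which encodes the high-affinity kainate subunit GluK5, was the most abundant glutamate receptor gene of the list (1355, 1934 and 1534 reads). It was highest after Ptbp1 siRNA, 1.13-fold over control siRNA (1.06 to 1.21), and both siRNAs over Ptbp1 siRNA gave 0.833 (0.776 to 0.893). Grik2, whose product can form channels without GluK5, held 1.75%, 1.18% and 1.25% of the RPKM of the pair, on 26, 25 and 21 reads.

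Grin1, the obligate NMDA subunit gene, had 59 reads after both siRNAs, 94 after Ptbp1 siRNA and 44 after control siRNA. It was highest after Ptbp1 siRNA, 1.92-fold over control siRNA (1.33 to 2.81). Unlike that of Shank3, the Grin1 interval for both siRNAs over Ptbp1 siRNA held 1 (0.746, 0.529 to 1.04). Its ratio of both siRNAs over control siRNA was 1.43 (0.954 to 2.17), an interval that lay above 1 when libraries were scaled by their totals, and 13.5% of its exon bases are shared with E130003G02Rik. Grin2a and Grin2b, which encode glutamate-binding subunits, had 0 reads in every library, which allows up to 0.212, 0.178 and 0.198 CPM (3 reads) after both siRNAs, Ptbp1 siRNA and control siRNA. Grin2d, a glutamate-binding subunit gene outside the 33, was measured at 64, 59 and 72 reads. The same limits hold for Gabra3, a GABA-A receptor subunit gene, and Grm5, a metabotropic glutamate receptor gene, both at 0 in every library. Gabbr2, the GABA-B subunit gene, had 2, 0 and 1 reads, and Nlgn1 0, 1 and 2.

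**Figure D4:**
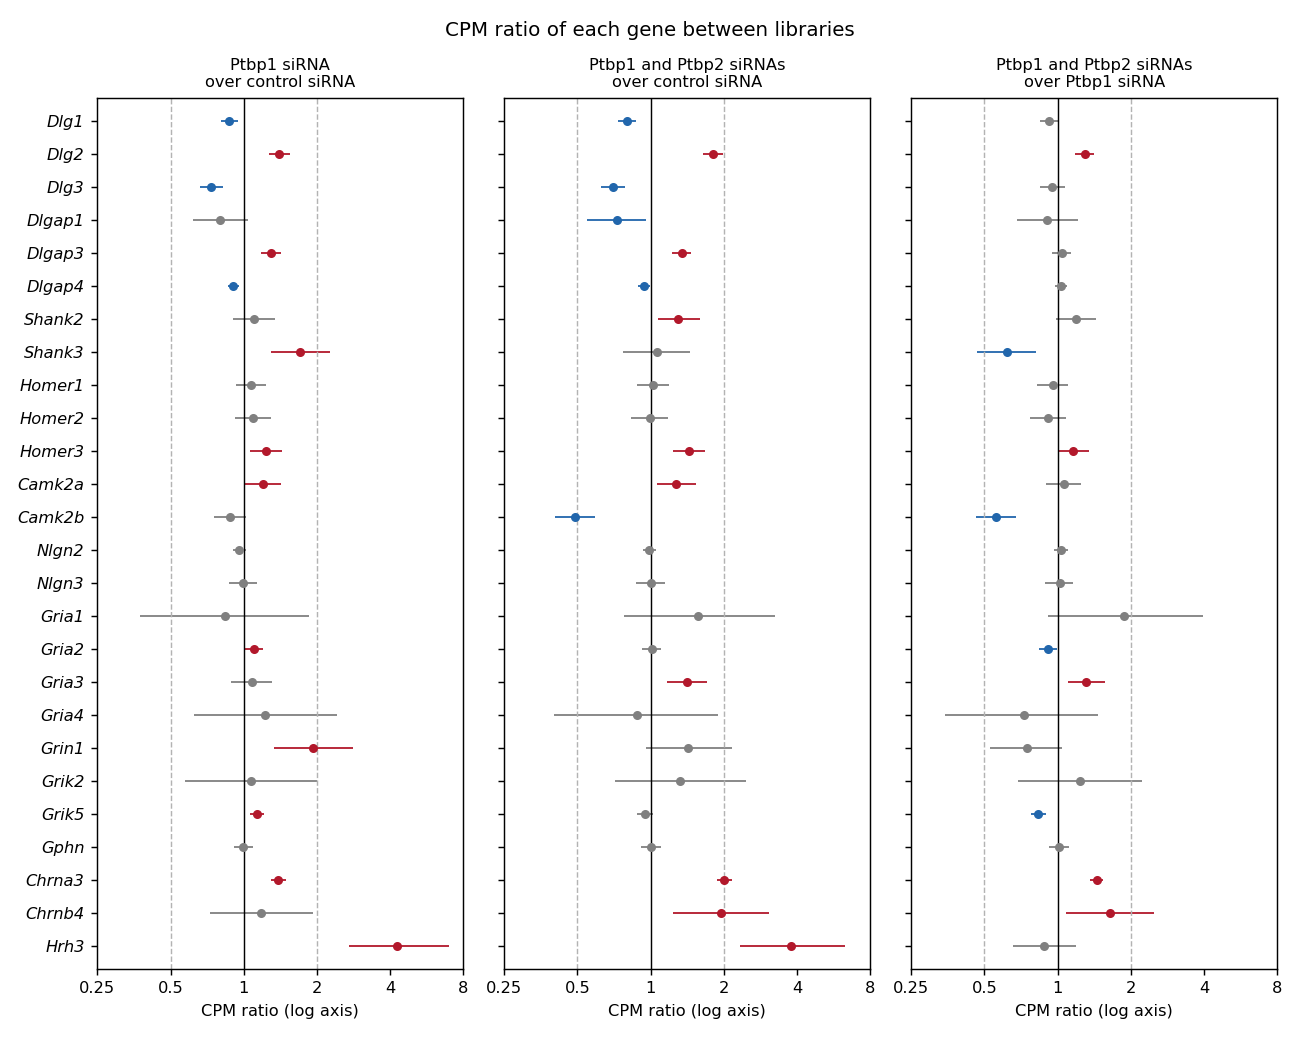
CPM ratio (log axis) of the 26 measured genes for Ptbp1 siRNA over control siRNA, both siRNAs over control siRNA and both siRNAs over Ptbp1 siRNA, with 95% counting intervals as bars. Red and blue mark intervals above and below 1, and dashed lines mark ratios of 0.5 and 2: Shank3 and Grin1 are red in the first panel only, Camk2b is blue in the other two panels, and Chrna3 and Dlg2 are red in all 3.

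Nlgn2, Nlgn3 and gephyrin differed little in any of the 3 pairs. Nlgn2, the neuroligin of inhibitory synapses (chromosome 11, 69636625 to 69651286), had 1824 reads after both siRNAs, 2108 after Ptbp1 siRNA and 1973 after control siRNA, with a ratio of 0.988 for both siRNAs over control siRNA (0.927 to 1.05). Gphn, the gephyrin gene (chromosome 12, 79327721 to 79785725), had 898, 1055 and 955 reads and a ratio of 1.00 (0.916 to 1.10). Nlgn3 had 404, 473 and 430 reads and a ratio of 1.00 (0.874 to 1.15). At these depths the intervals leave room for differences of at most 1.15-fold between both siRNAs and control siRNA, before any variation between cultures. They cover counting error only. About 6.8% of the exon bases of Nlgn3 are shared with Med12, whose own cluster had 1689, 2025 and 2125 reads. Its difference in this pair was -0.23 on the log2(CPM + 1) scale, and the part of shared reads in the Nlgn3 values was not tested.

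Compared per exonic length, the members covered a wide range. After control siRNA Grik5 was the highest at 16.9 RPKM, followed by Nlgn2 at 14.2, Dlgap4 at 13.4 and Chrna3 at 12.4, and Grik5 stood at percentile 87.5 of all genes in the table. After both siRNAs Chrna3 was the highest at 26.1 RPKM, ahead of Grik5 at 16.7 and Nlgn2 at 14.7. Together the 32 genes held 0.115% of the reads after both siRNAs, 0.110% after Ptbp1 siRNA and 0.0992% after control siRNA.

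Sorted by which intervals excluded 1, the measured genes fell into several patterns. Dlg2, Homer3 and Chrna3 stood above control siRNA after either knockdown, and higher after both siRNAs than after Ptbp1 siRNA. Dlgap3, Camk2a and Hrh3 stood above control siRNA with no such step between the knockdowns, and Dlg1, Dlg3 and Dlgap4 below it. Shank3, Gria2 and Grik5 were higher after Ptbp1 siRNA than in either other library, and Grin1 higher than after control siRNA. Gria3 and Chrnb4 were highest after both siRNAs, and Camk2b lowest. Shank2 was higher and Dlgap1 lower after both siRNAs than after control siRNA. In 8 genes every interval held 1: Homer1, Homer2, Nlgn2, Nlgn3, Gria1, Gria4, Grik2 and Gphn.

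Beyond the members, 8 further lists of receptors, auxiliary subunits, scaffolds and adhesion and signalling genes held 198 names, of which 192 had a row. For Ptbp1 siRNA against control siRNA none of 97 tested genes was called in either direction, with a median of 0.04. For both siRNAs against control siRNA 2 were called higher and 1 lower of 103, beside 1.07% and 2.75% of all genes tested, with a median of 0.03, and for both siRNAs against Ptbp1 siRNA none of 105, with a median of -0.03. Gabbr1, the GABA-B receptor subunit that binds the ligand (chromosome 17, 37182911 to 37211250), had 1581 reads after both siRNAs, 1787 after Ptbp1 siRNA and 806 after control siRNA. It rose 2.10-fold after both siRNAs over control siRNA (1.92 to 2.28), and Ptbp1 siRNA over control siRNA gave 1.99 (1.83 to 2.17), just short of a call. Its partner Gabbr2 was, as given above, at 2 reads or fewer. Drd1a, the dopamine D1 receptor gene (chromosome 13, 54147024 to 54151027), had 27, 72 and 121 reads, and fell 4.19-fold after both siRNAs against control siRNA (2.74 to 6.62). Adra2a, an adrenergic receptor gene named after its values were seen because it was called on few reads, had 21, 12 and 3 reads and a ratio of 7.48 for both siRNAs over control siRNA (2.23 to 39.2).

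The other receptor genes named from these lists were not called. Htr3a, the gene of the serotonin-gated ion channel, had 1329, 1061 and 717 reads and a ratio of 1.98 for both siRNAs over control siRNA (1.81 to 2.17). Cnih2, an auxiliary AMPA receptor subunit gene, had 443, 348 and 242 reads and 1.96 (1.67 to 2.30). Grin3b, an NMDA subunit gene with 32.1% of its exon bases shared, had 47, 25 and 22 reads and 2.28 (1.35 to 3.98). Chrnb1, the muscle-type nicotinic beta1 subunit gene, had 22, 48 and 52 reads and was 2.21-fold lower (1.32 to 3.82).

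Gabarap, which encodes a GABA-A receptor-associated trafficking and autophagy protein, had 1543, 1905 and 2853 reads and was 1.73-fold lower after both siRNAs than after control siRNA (1.63 to 1.84). Lrrc4b, a synaptic adhesion gene, and Apba1, a Cask-binding adaptor gene, were both 1.54-fold higher (1.40 to 1.68 and 1.35 to 1.75). In the same pair, on the log2(CPM + 1) scale, the palmitoyltransferase gene Zdhhc3 was at 0.41 and the kinase gene Camk1d at 0.32, while the MAGUK gene Mpp2 was at -0.49, the receptor phosphatase gene Ptprf at -0.43 and Camk2d at -0.35. By list, the medians for both siRNAs over control siRNA were 0.16 for the other ionotropic glutamate receptor and the other nicotinic genes, 0.13 for aminergic, muscarinic and purinergic receptors, 0.07 for kinase and plasticity genes, 0.03 for metabotropic and GABA-B genes, -0.01 for GABA-A and glycine receptor genes, -0.02 for other scaffolds and -0.18 for adhesion genes.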

How the data were processed

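Poly(A)+ RNA of 3 cultures was sequenced as pairs of 36-base reads, per the labels' protocols. Per the file headers, the table deposited by the authors gives a read value, an exonic length and an RPKM per gene cluster and library; the submitters' processing notes name mm9, and no aligner or counting tool is named in the sources at hand. The deposited read values are net numbers, and so a score rather than plain counts: 38 clusters are below 0 (lowest -65), none of them a member. These and 127 clusters with no length were left out, and the rest handled as counts, as planned for reads. Starts count from 1 and ends lie 1 base past the last: 5544 starts equal those of GENCODE and 5455 ends exceed them by 1.

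Clusters were named by alias and position, with the highest row per symbol kept (26711 genes). Scaling between libraries used trimmed means of log ratios, with factors of 1.02, 1.02 and 0.967 for both siRNAs, Ptbp1 siRNA and control siRNA. Python 3.11.15, numpy 2.4.6, scipy 1.17.1 and pandas 2.3.3 were used, and the computation was tested on simulated data. Members and gene lists were chosen with earlier results of these data known. All members are accounted for. From the further lists, genes called on 50 reads or more and the 2 largest differences per list after both siRNAs over control siRNA, on as many reads, are named, except 1 gene that is not reported here. Alternatives were other pseudocounts, minimum levels, scalings, size limits, summed rows and the deposited RPKM.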

Additional observations from a re-analysis of the deposited data

How the results depend on the processing

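No paired analysis was possible because each group has 1 library, and none could be left out. The median of the measured members ranged from 0.09 to 0.19 for Ptbp1 siRNA over control siRNA, from 0.01 to 0.12 for both siRNAs over control siRNA and from -0.02 to 0.02 for both siRNAs over Ptbp1 siRNA. Over all genes, Ptbp1 siRNA against control siRNA gave 166 higher and 137 lower with a pseudocount of 0.1 CPM, 4 and 26 with 5 CPM, 399 and 462 at 1.5-fold, 15 and 40 with the deposited RPKM, and 22 higher with a minimum of 5 CPM. Both siRNAs against control siRNA gave 341 higher with 0.1 CPM, 45 and 180 with 5 CPM, 967 and 1340 at 1.5-fold and 89 and 173 with RPKM. Both siRNAs against Ptbp1 siRNA gave 84 and 169, 1 and 9, 244 and 477 in the order of 0.1 CPM, 5 CPM and 1.5-fold, 6 higher with the 5 CPM minimum and 24 lower with RPKM.

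Hrh3 lost its call in both knockdowns with a pseudocount of 5 CPM (0.82 and 0.72 after Ptbp1 siRNA and both siRNAs, 0 members called) and with RPKM (0.98 and 0.87, 0 members called after Ptbp1 siRNA, and Chrna3 in its place after both siRNAs). Whether its low level accounts for this was not tested. Chrna3 was called after both siRNAs with a pseudocount of 0.1 CPM, median-of-ratios or library-total scaling and RPKM (1.00 to 1.07), and Camk2b at -1.02 with 0.1 CPM, which makes 2 higher and 1 lower. At 1.5-fold 3 members were higher after Ptbp1 siRNA over control siRNA, 4 higher and 1 lower after both siRNAs over control siRNA, and 2 lower for both siRNAs over Ptbp1 siRNA. Of 624 values of single members under alternatives 615 kept their side of the limit, 5 passed it and 4 fell short. The 1.5-fold limit was not among these alternatives. Most of the values were of members without a call, so this count says little about the genes near the limit. Hrh3 was called in 7 of 9 settings in each knockdown over control siRNA. Chrna3 was called in 4 of 9 after both siRNAs over control siRNA. Some differences lay so near 0 that their sign turned under some settings, within -0.06 to 0.06. These were Nlgn2, Nlgn3 and Gphn for Ptbp1 siRNA over control siRNA, and Nlgn2 and Homer2 for both siRNAs over control siRNA.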

Other observations

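No row listed Shank1, but 2 clusters known only by a transcript identifier lie on the same strand within its annotated span on chromosome 7. The first (51597505 to 51609197) had 13 reads after both siRNAs, 30 after Ptbp1 siRNA and 12 after control siRNA, and the second (51609225 to 51611697) had 6, 3 and 5. They were not counted as members.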
